A study of Mus musculus with 9 samples.

Results

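Neuronal nicotinic acetylcholine receptors are represented here by the 8 genes Chrna3, Chrna4, Chrna5, Chrna6, Chrna7, Chrnb2, Chrnb3 and Chrnb4, chosen by name as the alpha and beta subunits of the neuronal receptors. All 8 were found by Ensembl identifier among the 47729 gene identifiers of each count file, and all 8 passed the filter on low counts that left 17671 genes for testing. Chrna6 and Chrnb3 were set against the other 6 because they are the subunits enriched in dopamine (DA) neurons.

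Nicotinic receptors are cation channels built as pentamers, and their ligand is acetylcholine. The alpha4 and beta2 subunits form the most widespread receptor of the brain, alpha7 forms channels of its own, and alpha3, alpha5 and beta4 are encoded side by side and are known for the habenula and its target in the midbrain. In the ventral midbrain, cholinergic input acts on DA neurons through receptors that contain alpha4 and beta2, often with alpha6, beta3 or alpha5, and alpha6 is found in few other cell types of the brain.

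RNA was sequenced from dissected midbrain of C57/Bl6 mice at 180 days of age (P180), in 3 libraries for each of 3 genotypes. The groups were Dot1l(+/+), Dot1l(fl/+) and Dot1l(fl/fl), with 0, 1 or 2 floxed alleles of Dot1l, and every mouse, controls included, carried 1 Pitx3-Cre allele and a Rosa-lox-stop-lox-Yfp reporter. DOT1L is a methyltransferase of histone H3, and the comparison asks what its loss from DA neurons does to the tissue. Each library pooled tissue of 3 mice, so that the replicates measure the spread between pools.

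Cre is made from the Pitx3 locus, which is active in post-mitotic DA neurons, whereas the dissected tissue held many other cells. The 5 oligodendrocyte markers (Mbp among them) summed to between 8462 and 9717 CPM (counts relative to the scaled library total) in the 9 libraries, the 3 GABA neuron markers to between 944.7 and 1084, and the 12 DA neuron markers to between 593.7 and 842.3. The tissue name in the labels, midbrain dopamine neurons, therefore does not describe a pure population, and although the design text speaks of sorted embryonic cells, every sample used here is labelled as dissected P180 tissue. In such tissue, fewer cells of a type and less RNA per cell cannot be told apart. Library totals ran from 16422135 to 28403218 counts. Replicates of a genotype differed more than counting error alone allows, by 4.49 to 8.30 times its variance in the pairs without Dot1l(fl/+) replicate 2 and by 15.3 and 16.6 times in its own pairs. Dot1l, whose counts include the exons outside the floxed one and so do not measure the deletion, had 83.5 ± 2.85 CPM in Dot1l(+/+), 73.5 ± 11.96 CPM in Dot1l(fl/+) and 79.6 ± 4.95 CPM in Dot1l(fl/fl) (SD, n = 3 libraries each).

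The genes lie in 5 places of the genome (GRCm38, GENCODE M21). Chrnb3 (ENSMUSG00000031492, chr8:27368711-27399730, plus strand) and Chrna6 (ENSMUSG00000031491, chr8:27403212-27413944, minus strand) are neighbours, with 3481 bases between them. Chrna5 (ENSMUSG00000035594, chr9:54980880-55007779, plus strand), Chrna3 (ENSMUSG00000032303, chr9:55010111-55026562, minus strand) and Chrnb4 (ENSMUSG00000035200, chr9:55028154-55048779, minus strand) form the other cluster, with gaps of 2331 and 1591 bases. Chrna4 (ENSMUSG00000027577, chr2:181018380-181043546), Chrna7 (ENSMUSG00000030525, chr7:63098692-63212569) and Chrnb2 (ENSMUSG00000027950, chr3:89746195-89764632) stand alone on the minus strand. Only Chrnb2 shares exon sequence with another gene, 1365 bases with the RNA editing enzyme gene Adar on the opposite strand. The libraries were directional, but whether strand was used in counting is not given in the sources used here, so part of the Chrnb2 count could come from Adar.

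Chrna4 and Chrnb2 were the most abundant subunit transcripts of the control midbrain. Per kilobase of annotated exon, Chrna4 stood at 21.2 ± 0.670 CPM and Chrnb2 at 11.4 ± 0.277 CPM in the 3 Dot1l(+/+) libraries (mean ± SD). Chrna6 followed with 7.13 ± 0.379 CPM per kilobase, Chrna7 with 4.56 ± 0.107 and Chrnb3 with 2.93 ± 0.0866, and none of these neighbours in the order overlapped. Chrna5, with 1.44 ± 0.263 CPM per kilobase, and Chrna3, with 1.01 ± 0.184, overlapped each other, and Chrnb4 was lowest with 0.242 ± 0.0601. The order in the middle depended on the length used. Per kilobase of coding sequence, Chrna6 (14.0 ± 0.744 CPM), Chrna7 (13.6 ± 0.321) and Chrnb3 (13.4 ± 0.396) could not be separated, whereas Chrna4 and Chrnb2 led and Chrnb4 came last by each of the 3 lengths tried. Chrnb4 was counted only 14 to 28 times in a library, which limits what can be said of it.

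**Figure D1:**
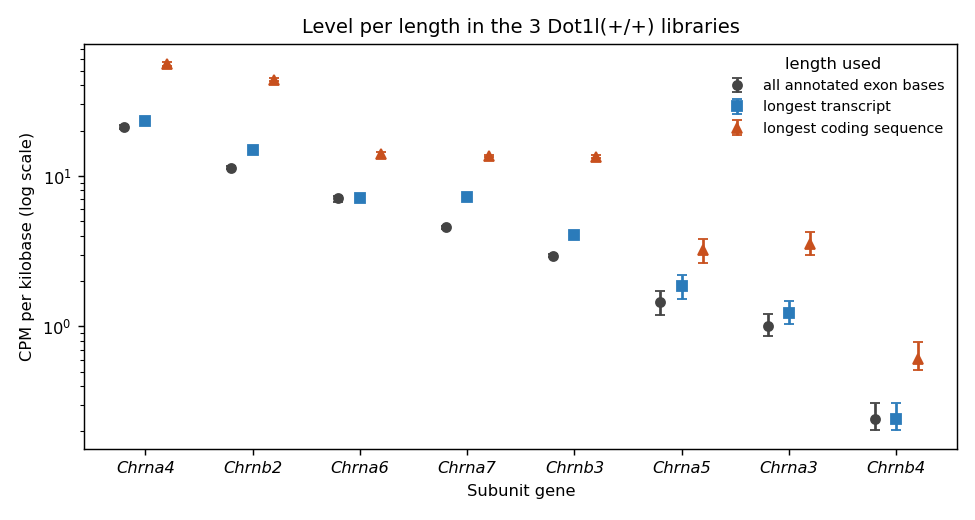
Level of each subunit gene in the 3 Dot1l(+/+) libraries as CPM per kilobase on a log axis, with the mean as the symbol, the lowest and highest library as the bar, and 3 definitions of gene length as shapes. Chrna4 (21.2) and Chrnb2 (11.4) lead by exon length, and Chrna6, Chrna7 and Chrnb3 come together when coding length is used (14.0, 13.6 and 13.4).

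None of the 8 genes passed an adjusted p-value of 0.05 in any comparison, and neither did any of the 17671 genes tested, so that the background is 0% in each (edgeR quasi-likelihood test with Benjamini-Hochberg adjustment). At an unadjusted p under 0.05, edgeR counted 1483, 694 and 1145 of all genes for Dot1l(fl/+) and Dot1l(fl/fl) against controls and for Dot1l(fl/fl) against Dot1l(fl/+), and DESeq2 called 7, 3 and 11 by adjusted p, none of them a subunit gene. The lowest adjusted p of a subunit gene was 0.541 for Dot1l(fl/+) against Dot1l(+/+), 0.999 for Dot1l(fl/fl) against Dot1l(+/+) and 0.745 for Dot1l(fl/fl) against Dot1l(fl/+). Below, directions are therefore given as values with their 95% intervals, beside the share of all genes that meet the same unadjusted criterion. Both comparisons with Dot1l(+/+) share its 3 libraries and are not independent of each other. Exact permutation of 3 against 3 libraries cannot give a two-sided p below 0.1 and was not used for single genes.

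**Figure D2:**
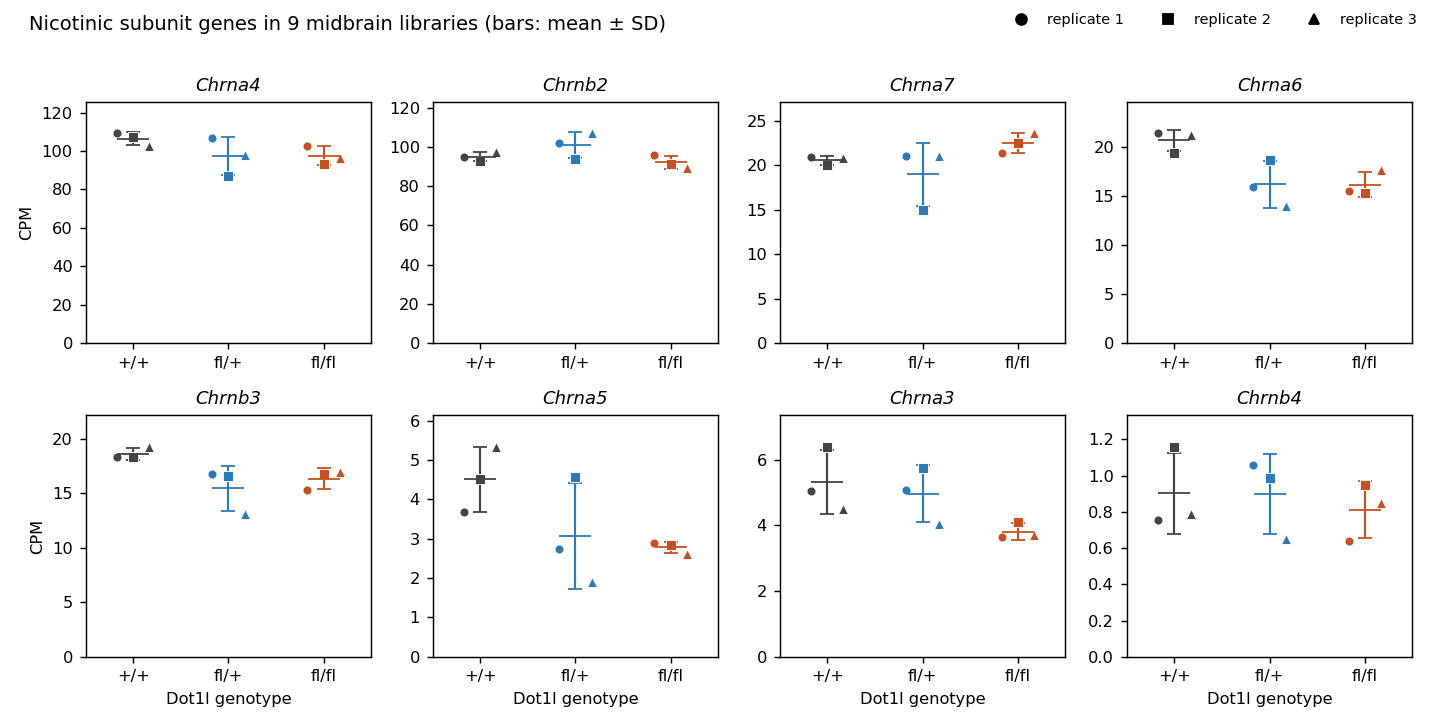
CPM of the 8 subunit genes in each of the 9 libraries by Dot1l genotype, each panel on its own axis from 0, with shapes for replicate numbers and bars for the mean ± SD of 3 libraries. The control libraries of Chrna6 (19.4 to 21.5 CPM) and Chrnb3 (18.3 to 19.3 CPM) lie above all libraries of both other genotypes.

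Chrna6, which encodes the alpha6 subunit, was lower in all 6 libraries with a floxed allele than in any control library. It stood at 21.5, 19.4 and 21.2 CPM in Dot1l(+/+), at 15.98, 18.8 and 14.0 CPM in Dot1l(fl/+), and at 15.5, 15.3 and 17.7 CPM in Dot1l(fl/fl), replicates 1 to 3 in turn. Both floxed genotypes had the same mean within their spread, 16.2 ± 2.39 CPM and 16.2 ± 1.29 CPM against 20.7 ± 1.102 CPM in controls. The log2 fold change was -0.35 (SE 0.11, 95% interval -0.58 to -0.11) in Dot1l(fl/+) and -0.36 (SE 0.11, -0.60 to -0.12) in Dot1l(fl/fl), which is 78.5% and 77.8% of the control level. Between Dot1l(fl/fl) and Dot1l(fl/+) it was -0.01, with an interval from -0.25 to 0.23. By unadjusted p, Chrna6 ranked 204th of 17671 genes in Dot1l(fl/+) and 65th in Dot1l(fl/fl). Without Dot1l(fl/+) replicate 3, its lowest library, the difference in Dot1l(fl/+) was -0.25.

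Chrnb3, which encodes the accessory beta3 subunit next to Chrna6 on chromosome 8, had the same pattern with a smaller difference. Its levels were 18.3, 18.3 and 19.3 CPM in Dot1l(+/+), 16.7, 16.6 and 13.1 CPM in Dot1l(fl/+), and 15.3, 16.8 and 17.0 CPM in Dot1l(fl/fl). No floxed library reached the lowest control. The log2 fold change was -0.27 (SE 0.10, 95% interval -0.49 to -0.05) in Dot1l(fl/+) and -0.19 (SE 0.10, -0.41 to 0.03) in Dot1l(fl/fl), so that the interval of the latter includes 0. Dot1l(fl/+) replicate 3 was again lowest, and without it the Dot1l(fl/+) value was -0.16. This library was also the lowest of its group in DA genes, with 53.5 CPM of Slc18a2, the vesicular monoamine transporter, against 73.96 and 78.7 CPM in the other Dot1l(fl/+) libraries and 52.5 to 54.2 CPM in Dot1l(fl/fl), and the part of this in the Chrna6 and Chrnb3 values was not tested. Over the 9 libraries, the log2 CPM of Chrna6 and Chrnb3 had a Pearson r of 0.861, and of 0.735 once each genotype's mean was taken off, as a description of libraries that share genotype and dissection. The log2 CPM of Chrna6 exceeded that of Chrnb3 by 0.15 ± 0.0730 (SD) in controls and by 0.07 ± 0.123 in Dot1l(fl/+), whereas the value in Dot1l(fl/fl) was -0.02 ± 0.0993, and the Dot1l(fl/fl) libraries (-0.13 to 0.06) lay below the controls (0.08 to 0.23). The share of other gene pairs that separate in this way was not computed. The 95% intervals of both log2 fold changes in Dot1l(fl/fl) overlap each other, so no shift between these genes is shown.

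The log2 level of Chrna6 and Chrnb3 relative to the mean of the other 6 subunits did not separate the genotypes. The difference of group means was -0.17 in Dot1l(fl/+) against Dot1l(+/+), -0.06 in Dot1l(fl/fl) against Dot1l(+/+) and 0.11 in Dot1l(fl/fl) against Dot1l(fl/+), where the SD between libraries was 0.110, 0.113 and 0.0828. The second value was -0.13 without Dot1l(+/+) replicate 2 and -0.01 without Dot1l(+/+) replicate 1, and the third ran from 0.06 without Dot1l(fl/fl) replicate 3 to 0.15 without Dot1l(fl/+) replicate 2. The groups overlapped in all 3 comparisons. Among the other 6, Chrna3 and Chrna5 had larger differences than Chrna6 in Dot1l(fl/fl).

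Chrna6 and Chrnb3 were also set against the mean of 4 DA genes. These were Slc6a3 (dopamine transporter), Slc18a2 (vesicular monoamine transporter), Th (tyrosine hydroxylase) and Ddc (aromatic amino acid decarboxylase), whose log2 fold changes in Dot1l(fl/fl) were -0.68, -0.68, -0.71 and -0.39, all with an adjusted p of 0.0906 or more by edgeR. With the replicate number as a block, the adjusted p was 0.0258 for Slc6a3, 0.0483 for Slc18a2 and 0.0258 for Th, which passes the threshold, and 0.726 for Ddc. The other 8 markers of DA neurons were divided, with Pitx3, Foxa2, Lmx1b and En1 between -1.45 and -0.49 but Nr4a2 at -0.11, Drd2 at -0.16, Aldh1a1 at -0.22 and Ret at -0.24, smaller differences than that of Chrna6 (-0.36), so that the values below hold against these 4 genes and not against DA neuron genes in general. Slc6a3 stood at 166, 151 and 145 CPM in Dot1l(+/+) against 94.3, 92.9 and 100.8 CPM in Dot1l(fl/fl), and no library of one group reached the other. Chrna6 less the mean of the 4 genes was -2.22, -2.24 and -2.03 on the log2 scale in Dot1l(+/+), -2.38, -2.21 and -2.20 in Dot1l(fl/+), whereas Dot1l(fl/fl) had -1.97, -1.95 and -1.82. All Dot1l(fl/fl) libraries were above all others, by 0.25 on average against Dot1l(+/+) and by 0.35 against Dot1l(fl/+), where the SD between libraries was 0.0995 and 0.0915. By unadjusted p of edgeR, the 4 genes ranked 1st, 2nd, 3rd and 5th of 17671 in Dot1l(fl/fl) against Dot1l(+/+), and their mean differed by -0.61. A gene with no difference of its own would therefore also lie higher in Dot1l(fl/fl) on this score. The share of all genes that separate in this way was not computed.

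Chrnb3 less the same mean was -2.45, -2.33 and -2.17 in Dot1l(+/+), -2.32, -2.39 and -2.30 in Dot1l(fl/+), whereas Dot1l(fl/fl) had -1.99, -1.82 and -1.88. Here too the Dot1l(fl/fl) libraries did not overlap with either group, with differences of 0.42 (SD 0.118) and 0.44 (SD 0.0703), although the log2 fold change of Chrnb3 itself, -0.19, lay within the range of Nr4a2, Drd2, Aldh1a1 and Ret. In Dot1l(fl/+) against Dot1l(+/+) the groups overlapped for both genes, with differences of -0.10 for Chrna6 and -0.02 for Chrnb3. Leaving out each library in turn gave -0.14 to -0.03 for Chrna6 and -0.08 to 0.06 for Chrnb3. Each of these ratios shares its DA gene level with the other, and no test was run on them. With each library left out in turn, the difference from Dot1l(+/+) in Dot1l(fl/fl) ranged from 0.21 to 0.32 for Chrna6 and from 0.35 to 0.49 for Chrnb3.

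**Figure D3:**
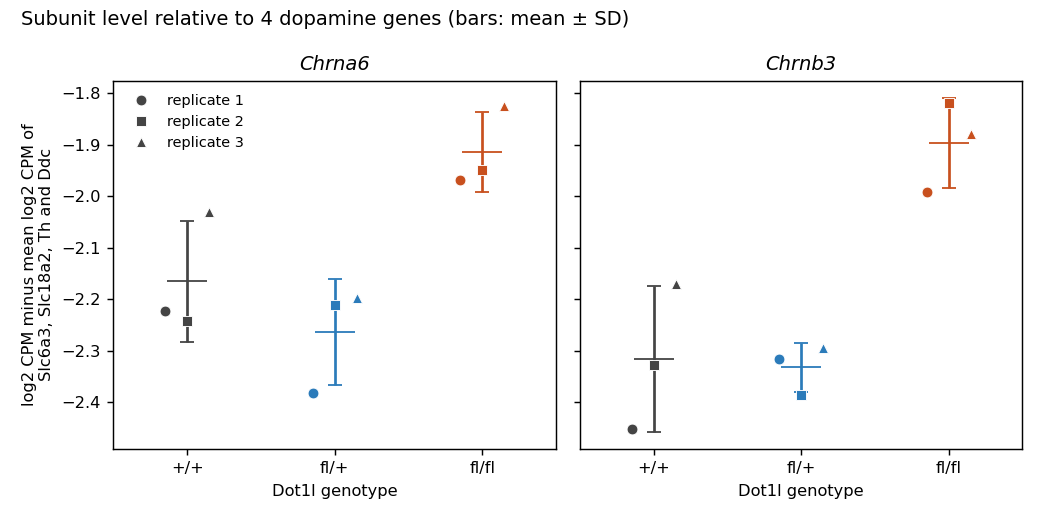
Log2 CPM of Chrna6 and of Chrnb3 less the mean log2 CPM of Slc6a3, Slc18a2, Th and Ddc in each library by Dot1l genotype, with shapes for replicate numbers and bars for mean ± SD of 3 libraries. The Dot1l(fl/fl) libraries (-1.97 to -1.82 for Chrna6, -1.99 to -1.82 for Chrnb3) lie above all other libraries. The mean of these DA genes was itself lowest in Dot1l(fl/fl).

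Of the 12 DA neuron markers, 11 had a level below controls in Dot1l(fl/+), the exception being Lmx1b (0.05), and 12 in Dot1l(fl/fl). By edgeR without a block 0 passed the adjusted threshold, whereas Slc6a3, Slc18a2 and Th passed in Dot1l(fl/fl) with the replicate number as a block. Unadjusted p was under 0.05 and the level lower for 4 of the 12 in Dot1l(fl/+), against 4.09% of all genes, and for 10 of the 12 in Dot1l(fl/fl), against 1.72%. Between Dot1l(fl/fl) and Dot1l(fl/+), where Chrna6 (-0.01) and Chrnb3 (0.08) were close to 0, it was 6 of the 12, against 2.87%, with a median log2 fold change of -0.37 over the list. Nr4a2 (-0.01), Ret (-0.08) and Aldh1a1 (-0.08) of the list were close to 0 there as well. The summed level was 752.0 to 842.3 CPM in Dot1l(+/+), 608.3 to 756.5 CPM in Dot1l(fl/+) and 593.7 to 623.3 CPM in Dot1l(fl/fl), so that Dot1l(fl/+) overlapped with controls, and none of the 12 was at 0 in all libraries. The part of this in the Chrna6 and Chrnb3 values was not tested.

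Chrna5 and Chrna3, from the cluster on chromosome 9, were lower in Dot1l(fl/fl) at a low level. Chrna5, an accessory alpha subunit, stood at 3.69, 4.51 and 5.33 CPM in Dot1l(+/+), at 2.74, 4.56 and 1.91 CPM in Dot1l(fl/+), and at 2.88, 2.85 and 2.61 CPM in Dot1l(fl/fl). The Dot1l(fl/fl) libraries were close together and below all controls, whereas those of Dot1l(fl/+) ran from the lowest value of all to inside the control range. The log2 fold change was -0.70 (SE 0.26, 95% interval -1.25 to -0.15) in Dot1l(fl/fl) and -0.55 (SE 0.25, -1.09 to -0.02) in Dot1l(fl/+). Leaving out replicate 2 of Dot1l(fl/+) made the latter -0.96, and leaving out its replicate 3 made it -0.31. These values rest on 43 to 142 counts per library, and Chrna5 had the highest biological coefficient of variation of the 8 genes, 20.3%.

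Chrna3, the main ligand-binding subunit of the cluster, stood at 5.06, 6.40 and 4.51 CPM in Dot1l(+/+), 5.09, 5.76 and 4.04 CPM in Dot1l(fl/+) and 3.64, 4.11 and 3.70 CPM in Dot1l(fl/fl). The log2 fold change was -0.47 (SE 0.17, 95% interval -0.84 to -0.11) in Dot1l(fl/fl) and -0.10 (SE 0.16, -0.45 to 0.26) in Dot1l(fl/+). Dot1l(fl/fl) lay below all controls, but overlapped with Dot1l(fl/+), where the difference was -0.38 (SE 0.17, -0.74 to -0.01). Chrnb4, the beta subunit of the cluster, had 0.757, 1.16 and 0.789 CPM in Dot1l(+/+), 1.06, 0.989 and 0.649 CPM in Dot1l(fl/+) and 0.640, 0.949 and 0.849 CPM in Dot1l(fl/fl). At this depth no difference was detectable for Chrnb4, with intervals from -0.65 to 0.64 and from -0.83 to 0.52 against controls.

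Chrna3 was highest in replicate 2 of Dot1l(+/+) and of Dot1l(fl/+). The same libraries were highest in Pou4f1, a transcription factor of the medial habenula and the red nucleus, with 6.87 and 6.22 CPM against 4.16 to 4.96 CPM in the other 7. Without Dot1l(+/+) replicate 2 the Chrna3 difference in Dot1l(fl/fl) was -0.32. The 4 medial habenula markers summed to 14.3 to 15.3 CPM in Dot1l(+/+), 13.4 to 16.9 CPM in Dot1l(fl/+) and 13.6 to 14.8 CPM in Dot1l(fl/fl), 0 of the 4 had an unadjusted p under 0.05 in any comparison, and none was at 0 in all libraries. In Dot1l(+/+) replicate 2, where Pou4f1 was highest, the other markers of this list were together lower than in the other controls. The part of these markers in the Chrna3 values was not tested.

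The upstream sequences of the cluster are shown because Chrna5 and Chrna3, the members with the largest differences in Dot1l(fl/fl), lie tail to tail, with their starts at opposite ends of 45683 bases. Windows of 250 bases before the annotated start were taken from RefSeq (GRCm38.p6), which gave 7 windows for 6 of the 8 genes. Windows of Chrna6 and Chrnb3 were not analysed here. Chrna5 has a pair of starts. Capitals mark the GC box, GGGCGG on either strand, the binding motif of Sp1-type factors.
Chrna5, first start, chr9:54980630-54980879, plus strand: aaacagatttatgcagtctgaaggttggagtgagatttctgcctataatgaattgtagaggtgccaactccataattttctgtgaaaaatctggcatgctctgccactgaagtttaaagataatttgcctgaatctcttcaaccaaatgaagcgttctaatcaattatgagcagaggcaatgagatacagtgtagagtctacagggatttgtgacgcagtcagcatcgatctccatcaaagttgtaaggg
Chrna5, second start, chr9:54981238-54981487, plus strand: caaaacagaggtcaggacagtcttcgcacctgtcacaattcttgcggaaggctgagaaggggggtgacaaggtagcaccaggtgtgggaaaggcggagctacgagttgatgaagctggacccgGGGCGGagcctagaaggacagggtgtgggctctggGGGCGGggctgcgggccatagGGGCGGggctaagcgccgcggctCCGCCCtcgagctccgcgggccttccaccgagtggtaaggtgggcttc
Chrna3, chr9:55026563-55026812, minus strand: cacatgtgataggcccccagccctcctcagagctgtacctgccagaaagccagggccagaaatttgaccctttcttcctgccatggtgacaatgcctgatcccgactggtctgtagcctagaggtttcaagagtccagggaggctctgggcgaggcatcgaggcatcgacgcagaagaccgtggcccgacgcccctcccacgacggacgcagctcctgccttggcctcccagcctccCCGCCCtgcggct
Chrnb4, chr9:55048545-55048794, minus strand: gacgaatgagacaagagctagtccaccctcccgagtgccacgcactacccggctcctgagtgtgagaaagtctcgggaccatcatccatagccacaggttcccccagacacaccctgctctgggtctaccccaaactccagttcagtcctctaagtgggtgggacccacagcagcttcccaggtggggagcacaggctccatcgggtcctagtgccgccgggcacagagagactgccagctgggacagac

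The second Chrna5 window held 4 GC boxes and the Chrna3 window 1, whereas the first Chrna5 window and the Chrnb4 window held none. Outside the cluster, the window of Chrna4 held 3, that of Chrna7 held 1 and that of Chrnb2 held none. Of all 32536 upstream windows of this length, 33.0% held the motif. The first Chrna5 window was also poor in G and C, with 40% against 65.2% in the second, 63.2% for Chrna3 and a median of 52.4% over all windows. The response element AAAGGTCA of Nr4a2, the bicoid-type site TAATCC and the TATA box TATAAA, searched on both strands, were in none of the 7 windows of these 6 genes and in 1.35%, 6.25% and 12.3% of all windows. These are matches of letters only. The counts are per gene and do not say which Chrna5 start was used.

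Chrna4 and Chrnb2, which encode the subunits of the most common brain receptor, had differences whose 95% intervals against controls include 0. Chrna4 stood at 109, 107 and 103 CPM in Dot1l(+/+), 107, 87.0 and 98.1 CPM in Dot1l(fl/+) and 103, 93.0 and 96.6 CPM in Dot1l(fl/fl), and the groups overlapped. The log2 fold change was -0.13 in both floxed genotypes against controls (95% intervals -0.28 to 0.02 and -0.27 to 0.02; with the replicate number as a block, the unadjusted p in Dot1l(fl/+) went from 0.0806 to 0.0437 by edgeR), whose lower ends are 0.825 and 0.827 of the control level. Chrnb2 stood at 94.8, 93.0 and 97.6 CPM in Dot1l(+/+), 102, 94.1 and 107 CPM in Dot1l(fl/+) and 96.1, 91.3 and 89.5 CPM in Dot1l(fl/fl). Its log2 fold changes against controls were 0.09 (SE 0.06, -0.03 to 0.21) and -0.04 (SE 0.06, -0.16 to 0.08). Single libraries moved these values. In Dot1l(fl/+) against controls, Chrna4 was -0.20 without Dot1l(fl/+) replicate 1 (unadjusted p 0.0113, adjusted p 0.257 by edgeR) and -0.06 without replicate 2, while Chrnb2 was 0.14 without replicate 2 (unadjusted p 0.0197, adjusted p 0.4297 by edgeR) and 0.04 without replicate 3. Chrnb2 in Dot1l(fl/fl) against controls ran from -0.07 without Dot1l(fl/fl) replicate 1 to -0.02 without replicate 3. Adar, its opposite-strand neighbour, had 249 ± 5.43, 259 ± 11.4 and 243 ± 11.96 CPM in the 3 genotypes, in the same order as Chrnb2, and the part of shared reads was not tested.

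Chrna7, the subunit of the homomeric receptor, was the 1 member with a higher level in Dot1l(fl/fl). It stood at 20.9, 19.97 and 20.7 CPM in Dot1l(+/+), 21, 14.9 and 20.99 CPM in Dot1l(fl/+) and 21.4, 22.5 and 23.6 CPM in Dot1l(fl/fl). Dot1l(fl/fl) lay above all other libraries, with a log2 fold change of 0.13 (SE 0.12, 95% interval -0.12 to 0.38) against Dot1l(+/+) and 0.25 (SE 0.12, -0.004 to 0.49) against Dot1l(fl/+). The latter was 0.10 without Dot1l(fl/+) replicate 2, the library with 14.9 CPM. With the replicate number as a block it was 0.26, with an unadjusted p of 0.0296 and an adjusted p of 0.673 by edgeR.

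**Figure D4:**
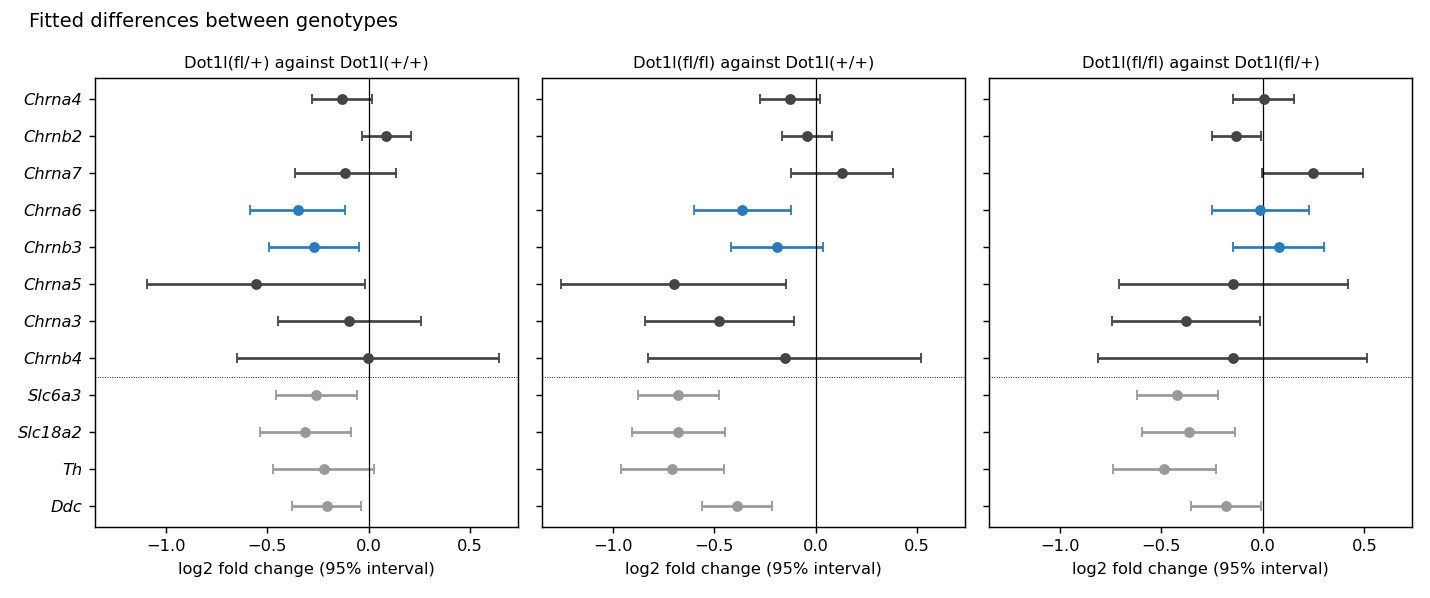
Fitted log2 fold change with its 95% interval for the 8 subunit genes (Chrna6 and Chrnb3 in blue) and, below the dotted line, 4 DA genes (grey), in 3 comparisons. In Dot1l(fl/fl) against Dot1l(+/+), Chrna6 (-0.36), Chrna5 (-0.70) and Chrna3 (-0.47) have intervals below 0, and the DA genes lie between -0.71 and -0.39.

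Over the 8 members, the level was lower than in controls for 7 in each of the floxed genotypes, while 51.1% of all genes were lower in the first of them, Dot1l(fl/+), and 49.6% in the other. The 7 include differences close to 0, and leaving out 1 library turned the sign of Chrna3, Chrna7 and Chrnb4 in Dot1l(fl/+) and of Chrnb4 in Dot1l(fl/fl). The median log2 fold change of the 8 was -0.12 in Dot1l(fl/+), where that of all genes was -0.003, while it was -0.17 in Dot1l(fl/fl), where that of all genes was 0.0009. In Dot1l(fl/+), 3 members (Chrna5, Chrna6 and Chrnb3) were lower with an unadjusted p under 0.05, against 4.09% of all genes, and 2 (Chrna6 and Chrnb3) did not overlap, against 6.47%. Leaving out replicate 3 of Dot1l(fl/+), or replicate 3 of Dot1l(+/+), made that count 1. In the same comparison 4 of the 5 oligodendrocyte markers had a higher level, Mog (0.16) and Cnp (0.17) with an unadjusted p under 0.05, against 8.39% of all genes in either direction. Their summed level was 8462 to 9384 CPM in Dot1l(+/+) and 8547 to 9717 CPM in Dot1l(fl/+), none was at 0, and their part in the subunit values was not tested. Also higher with such a p were Aldh1l1 (0.13), 1 of 4 astrocyte markers, and Isl1 (1.05, from 13 to 72 counts per library), 1 of 4 tested markers of cholinergic neurons. The astrocyte list was divided, with 2 markers higher and 2 lower, Aqp4 at -0.09 and Slc1a3 at -0.02. In Dot1l(fl/fl), 3 members (Chrna3, Chrna5 and Chrna6) were lower with an unadjusted p under 0.05, against 1.72% of all genes. There, 4 members (Chrna3, Chrna5, Chrna6 and Chrnb3) lay below all controls, against 5.25%, and 1 (Chrna7) lay above, against 5.03%. In the fit of the 2 genotypes alone the count of 3 was 5. All 4 microglia markers had a higher level in Dot1l(fl/fl) than in controls, Csf1r (0.15) with an unadjusted p under 0.05 against 3.93% of all genes. They summed to 176.2 to 190.2 CPM in Dot1l(+/+) and 198.9 to 212.7 CPM in Dot1l(fl/fl), without overlap, none was at 0, and their part in the subunit values was not tested.

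For Dot1l(fl/fl) against Dot1l(fl/+), 5 members were lower and 3 higher, with a median of -0.07 against 0.001 over all genes. Chrna3 and Chrnb2 were lower with an unadjusted p under 0.05, 2 members against 2.87% of all genes, and the Chrnb2 difference was -0.13 (SE 0.06, 95% interval -0.25 to -0.01; -0.09 without Dot1l(fl/+) replicate 3). The oligodendrocyte markers Mbp (-0.14), Mag (-0.15) and Cnp (-0.19) were lower with such a p too, 3 of 5, where the summed level was 8547 to 9717 CPM in Dot1l(fl/+) and 8696 to 9114 CPM in Dot1l(fl/fl), and their part was not tested. With libraries left out in turn, the count of lower members was 0 without replicate 1 of Dot1l(fl/+) or replicate 3 of Dot1l(fl/fl), and 1 without any other library of these genotypes. By DESeq2 on all 9 libraries the unadjusted p was 0.0673 for Chrna3 and 0.045 for Chrnb2, and Chrna7, higher at 0.24, had 0.0486. None of the 8 lay below all Dot1l(fl/+) libraries, against 5.14% of all genes, and 1, Chrna7, lay above, against 5.98%.

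The genes whose log2 CPM followed the 4 subunits of the DA neuron receptors most closely over the 9 libraries were not on the list of DA neuron markers. They were Mn1 (Pearson r 0.944), Ccdc14, Ninl, Gm8399 and Gm5535 for Chrna6, and Gm14584 (0.968), Ube3a, Trove2, Med13 and Scai for Chrnb3. For Chrna4 they were Pom121 (0.979), Scn7a, Slc29a2, Calr4 and A330023F24Rik, and for Chrnb2 Henmt1 (0.9697), Hyi, Dock5, Nrxn2 and Ahcy. Each was the best of 17670 genes over 9 libraries that share genotype and dissection. With Slc18a2, the r was 0.832 for Chrna6, 0.823 for Chrna3, 0.795 for Chrna5 and 0.693 for Chrnb3, and between -0.49 and 0.415 for the other 4 subunits. Over Slc6a3, Slc18a2, Th and Ddc it ranged from 0.697 to 0.874 for Chrna6 and from 0.485 to 0.725 for Chrnb3, lowest with Th for both. For Chrna3 it ran from 0.747 to 0.875, highest with Th, and for Chrna5 from 0.641 to 0.795.

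Other genes of the cholinergic system were counted by list, where an unadjusted p under 0.05 in either direction had a background of 8.39%, 3.93% and 6.48% of all genes in the 3 comparisons. Of 8 further nicotinic subunits, mostly of muscle and of the inner ear, Chrna1, Chrna2 and Chrnb1 were high enough to test, while Chrnd and Chrng had no count in any library. Chrna2, an alpha subunit of the brain, stood at 1.66, 1.93 and 1.92 CPM in Dot1l(+/+), at 1.41, 1.91 and 0.305 CPM in Dot1l(fl/+), and at 2.40, 2.77 and 2.37 CPM in Dot1l(fl/fl). Its value in Dot1l(fl/+) replicate 3 came from 8 counts, and the log2 fold change of Dot1l(fl/fl) against Dot1l(fl/+) was 1.05 (SE 0.38, adjusted p = 0.726 by edgeR). Of the 3 tested, Chrna2 had an unadjusted p under 0.05 in this comparison, and 0 in the other 2.

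Of 9 genes for receptor assembly and for Ly6 prototoxins, small proteins that bind nicotinic receptors, 8 were tested. Ric3 and Tmem35a, the chaperones of alpha7, had log2 fold changes of -0.05 each in Dot1l(fl/+), while in Dot1l(fl/fl) they had -0.03 and 0.00. Lynx1, the most abundant of the list, stood between 343.3 and 464.6 CPM. Ly6h alone had an unadjusted p under 0.05, in Dot1l(fl/+) against either other genotype, with 99.3 ± 6.40 CPM in Dot1l(+/+), 112 ± 12.6 CPM in Dot1l(fl/+) and 99.0 ± 1.70 CPM in Dot1l(fl/fl).

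Acetylcholine supply and breakdown were measured in 7 genes. Chat, which makes acetylcholine, was between 0.338 and 0.902 CPM, and Slc5a7, the choline transporter, between 1.38 and 3.32 CPM. Ache, the degrading enzyme, was abundant with 145.1 to 174.3 CPM and had log2 fold changes of -0.04 and -0.08 against controls. Prima1, which anchors the enzyme to the membrane, was the 1 gene of the list with an unadjusted p under 0.05, at -0.31 in Dot1l(fl/fl) against controls, 1 of 7 where the background was 3.93%. Of the 5 muscarinic receptor genes, 0 had one in any comparison. Chrm5, the muscarinic receptor known from DA neurons, stood at 3.63 CPM in Dot1l(+/+), 3.59 CPM in Dot1l(fl/+) and 4.27 CPM in Dot1l(fl/fl), with log2 fold changes of -0.02 and 0.24 against controls.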

How the data were processed

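Count files of 9 libraries were analysed, 3 per genotype. The authors deposited raw counts per Ensembl gene, and no normalization had been applied. The submitters' processing notes name bcl2fastq 2.17, Trimmomatic 0.30, DESeq2 1.10.1 and the build GRCm38.p4, and the aligner and counting tool are not given in the sources used here. The authors' own DESeq2 comparisons (mean, log2 fold change, SE, test statistic, p-values) were not used. Of the 47729 identifiers, 47224 had a gene in GENCODE M21, with 99.9% of all counts. Each library pooled 3 mice, so p-values measure the spread between pools.

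Genes were filtered with filterByExpr, TMM-normalized and tested in 1 fit of all 9 libraries with edgeR 4.0.16 (R 4.3.3, limma 3.58.1), quasi-likelihood and Benjamini-Hochberg adjustment over 17671 genes. Scores used log2 CPM with a prior count of 2. On simulated data for Dot1l(fl/fl) against Dot1l(+/+), 61.1% of genes changed by 0.5 (log2; 17483 genes in the step) and 84.3% of those changed by 1 (17498 genes) were recovered. The simulated counts followed the trend of spread with level, without the extra spread of single genes or libraries. These shares therefore do not give the power in the real data, least of all for genes with a wide spread such as Chrna5. Alternatives were DESeq2 1.42.0, the 2 genotypes alone, DESeq2 size factors, no filter, at least 10 counts in each library, a replicate block, a length and GC offset with and without the block, a prior count of 0.5, leaving out subunits under 1 CPM, and leaving out each library. The members, lists and tests were chosen with earlier results of these data known. Named were the members, Dot1l, the 4 DA genes, list genes with an unadjusted p under 0.05, and the 5 genes most correlated with each of 4 members; others were named after their values were seen. Figures were drawn with Python 3.11.15 and matplotlib 3.10.9.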

Additional observations from a re-analysis of the deposited data

How the results depend on the processing

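No subunit gene passed an adjusted p of 0.05 under any of the alternatives run. Of 336 subunit values recomputed, 318 kept their direction and 18 reversed, all for differences whose 95% interval includes 0. The lowest adjusted p, 0.0518, was for Chrna5 in Dot1l(fl/fl) against Dot1l(+/+) without a filter on low counts, a setting in which edgeR called 251, 118 and 164 of all genes in the 3 comparisons, against 0 in each with the filter. DESeq2 on all 9 libraries called 7, 3 and 11 of all genes and no subunit gene. Without the filter, Chrnb4 in Dot1l(fl/+) against Dot1l(+/+) was 0.000339 (log2), and Chrna4 in Dot1l(fl/fl) against Dot1l(fl/+) was -0.00137, or -0.000625 with at least 10 counts in every library. The cause was not tested.

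With each library left out in turn, ranges that cross 0 for Dot1l(fl/+) against Dot1l(+/+) were -0.218 to 0.0640 for Chrna3, -0.195 to 0.0327 for Chrna7 and -0.132 to 0.221 for Chrnb4. For Dot1l(fl/fl) against Dot1l(+/+) the range of Chrnb4 was -0.298 to 0.0694. For Dot1l(fl/fl) against Dot1l(fl/+) they were -0.0707 to 0.0747 for Chrna4, -0.394 to 0.264 for Chrna5, -0.108 to 0.105 for Chrna6, -0.0286 to 0.137 for Chrnb3 and -0.334 to 0.00689 for Chrnb4. The number of subunit genes with an unadjusted p under 0.05 in either direction ranged from 1 to 4 in Dot1l(fl/+) against Dot1l(+/+) and from 0 to 2 in Dot1l(fl/fl) against Dot1l(fl/+). With the 2 genotypes alone, which leaves fewer samples to estimate the spread, it was 5 for Dot1l(fl/fl) against Dot1l(+/+) and 1 for Dot1l(fl/fl) against Dot1l(fl/+).

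The pools were made from litter-matched sets of the 3 genotypes, but no source used here says that the replicate numbers mark those sets, so the block was kept as an alternative. Deviations from group means correlated positively in all 9 same-numbered pairs, at 0.0222 to 0.317, and at -0.267 to 0.108 in pairs of different numbers, mostly below 0. Not every library correlated best with its own number (Dot1l(fl/fl) replicate 3 had 0.106 with Dot1l(+/+) replicate 2). With the replicate number as a block, 4, 3 and 3 subunit genes had an unadjusted p under 0.05 in place of 3, 3 and 2, with Chrna4 added in Dot1l(fl/+) against Dot1l(+/+) and Chrna7 in Dot1l(fl/fl) against Dot1l(fl/+), none passed the adjusted threshold, and 0, 3 and 3 of all genes did, with Slc6a3, Slc18a2 and Th the 3 in Dot1l(fl/fl) against Dot1l(+/+). Depth limits Chrnb4 most, with 14 to 28 counts per library.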
